A study of Mus musculus with 12 samples.

Results

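The genes described here are 10 negative feedback genes of the MAP kinase pathways, chosen by symbol: the dual specificity phosphatase genes Dusp1, Dusp4, Dusp5, Dusp6, Dusp8, Dusp10 and Dusp16, the Sprouty genes Spry2 and Spry4, and Spred1. All 10 had a row among the 24340 gene rows of the expression table, and 9 of them, all but Spry2, were expressed enough to be tested among 10086 genes. Liver RNA of C57BL/6 mice from Taconic Bioscience was sequenced after poly(A) selection in 12 libraries, 3 in each of 4 groups. Mice drank plain water (CTL) or water with 3-phenylpropionic acid (PPA), which gut microbes produce, for 4 weeks, were fasted for 16 h, and were killed at 0 h or at 6 h after 300 mg/kg intraperitoneal acetaminophen (APAP), a pain reliever toxic to hepatocytes at high dose. The groups are CTL_0h, PPA_0h, CTL_6h and PPA_6h. All mice were fasted, and every 6 h mouse had received APAP, so hour of the day and length of the fast cannot be told apart from APAP. The labels used here do not say whether the 0 h mice were injected, nor whether libraries come from different animals. The p-values therefore reflect only how far these libraries scatter, which may be technical.

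Growth factors and cell stress activate the MAP kinases ERK, JNK and p38 by dual phosphorylation, and MAP kinase phosphatases of the DUSP family remove both phosphates and so switch the kinases off. Many of these phosphatase genes are transcribed in response to the kinases they oppose, which makes them a feedback brake and also a transcript-level trace of pathway activity. Sprouty and Spred proteins act further upstream and restrain signalling from receptor tyrosine kinases through Ras to ERK. In the acetaminophen-injured liver of mice, sustained JNK activation and its movement to mitochondria are a known part of hepatocyte death.

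The unit of expression was FPKM, a fragment count divided by transcript length and by library total. The low values fell on steps of single fragments, from which the 0 h libraries were estimated to hold 3240000 to 5010000 fragments and the 6 h libraries 6920000 to 10000000, so low values are less precise at 0 h and depth and time cannot be told apart. Replicates within a group correlated at 0.973 or more across genes. Of the hepatocyte markers, Ttr stood at 3433 FPKM or more and Apoa1 at 16080 FPKM or more in every library, while in every 6 h library Alb, and in CTL_6h also Apoe, had a listed value of 0. Changes below are differences of log2(FPKM + 1) with their SE from limma, which understate the change of genes with low FPKM. A gene is said to have risen or fallen where its adjusted p over all tested genes was under 0.05. In bulk liver, fewer cells of a type and less RNA per cell cannot be told apart.

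In mice on plain water, all 9 tested members rose by 6 h after APAP, and none of their 0 h and 6 h values overlapped. The share of all tested genes without overlap is not given for the APAP comparisons, so lack of overlap is only a description there. On the log2(FPKM + 1) scale the changes ran from 3.77 for Dusp5, 3.15 for Dusp8 and 2.86 for Dusp4, all nearly silent at 0 h, to 0.96 for Spred1 and 0.90 for Spry4. This order depends on the pseudocount: with 5 in place of 1 Dusp1 came first, and with 0.1 Spred1 and Spry4 came just above Dusp16. Among all tested genes, 15.0% rose and 11.6% fell in this comparison, against 9 and 0 of the 9 members. Of these 9, Dusp4, Dusp5, Dusp8, Dusp10 and Spred1 reached the filter of 1 FPKM in 3 libraries only with the 6 h libraries and so had to be high there, and their count is a description. The other 4, Dusp1, Dusp6, Dusp16 and Spry4, passed it from the 0 h libraries alone. With no filter 9 of the 10 genes rose, and 8.43% of 17161 genes did. The members' adjusted p lay between 1.45e-06 and 0.00406 by limma, and the counts of 9 higher and 0 lower were the same without each of the 6 libraries compared.

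**Figure D1:**
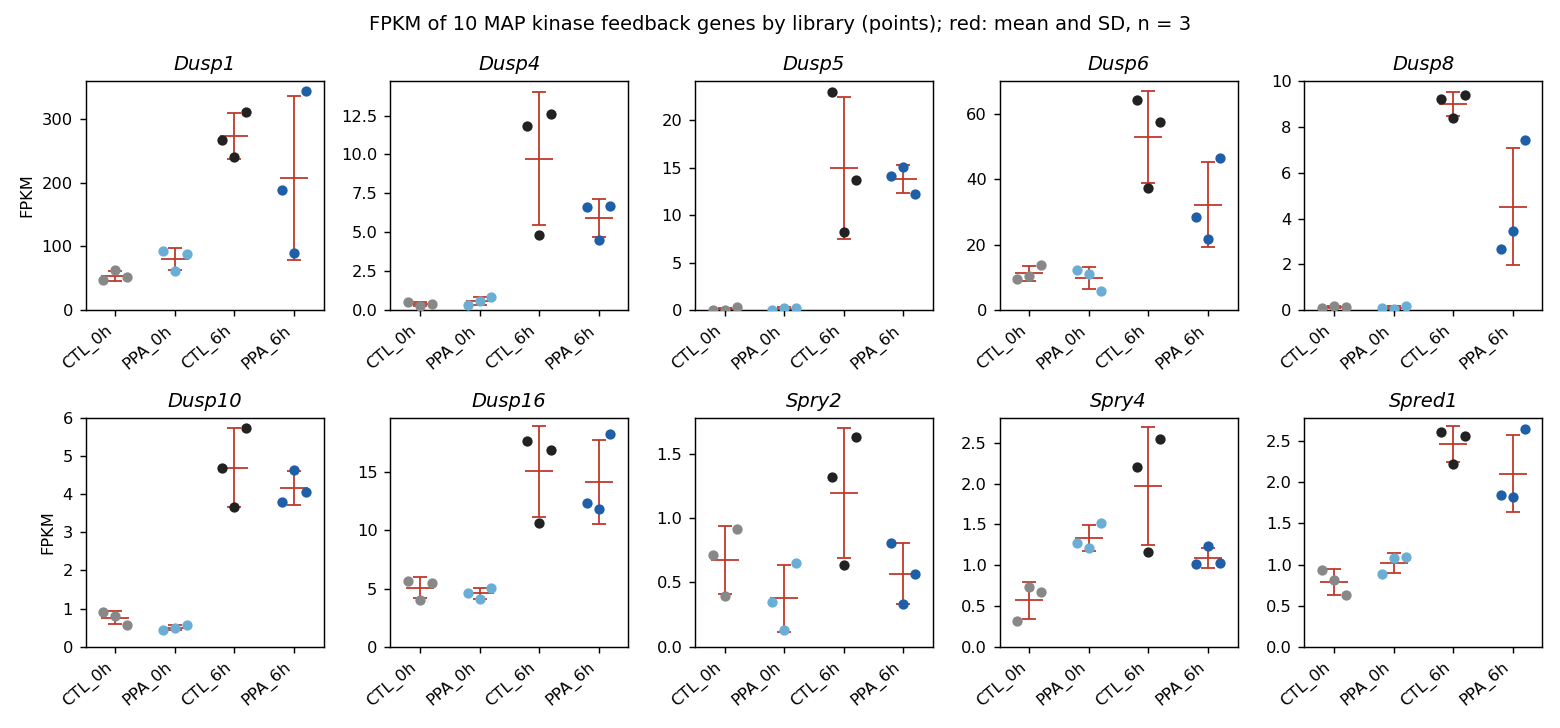
FPKM of each of the 10 genes in each library (points, 3 per group; linear axes that start at 0), with the group mean and SD in red (SD bars are cut at 0). Dusp4, Dusp5 and Dusp8 were below 1 FPKM in every 0 h library and above 2 FPKM in every 6 h library, and Dusp1 had the highest level of the 10 genes in every group.

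Dusp1 encodes MKP-1, a nuclear phosphatase that acts on p38, JNK and ERK and is a classic immediate early gene. It had the highest FPKM of the family in every library. In CTL_0h it measured 47.7, 62.7 and 51.8 FPKM, and in CTL_6h it measured 268, 240 and 312 FPKM. The 6 h values were 5.05 times the 0 h values on average, with no overlap, and the change was 2.32 ± 0.36 (adjusted p = 0.000632, limma). Dusp1 alone made up 69.3% to 78.1% of the summed FPKM of the 10 genes in CTL_0h and 66.2% to 75.7% in CTL_6h, as that sum went from between 66.4 and 80.2 to between 317 and 434 FPKM.

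The next 3 phosphatases act mainly on ERK or are induced by it. Dusp6 encodes MKP-3, a cytoplasmic phosphatase specific for ERK. Its level was 9.50, 10.4 and 13.9 FPKM in CTL_0h and 64.3, 37.3 and 57.5 FPKM in CTL_6h. All 6 h libraries lay above all 0 h libraries, CTL_6h_3 lowest among them, and the change was 2.12 ± 0.30 (adjusted p = 0.000375, limma). Dusp5 encodes a nuclear phosphatase that binds and inactivates ERK. In CTL_0h it was listed at 0 in 2 libraries and at 0.291 FPKM in the other, which amounts to about 2 fragments, and in CTL_6h it measured 23.0, 8.23 and 13.7 FPKM. The change was 3.77 ± 0.27 (adjusted p = 1.45e-06, limma), and its size depends on the pseudocount, since the 0 h level rests on so few fragments. Dusp4 encodes MKP-2, a nuclear phosphatase for ERK and JNK. It was at 0.506, 0.251 and 0.389 FPKM in CTL_0h and at 11.8, 4.80 and 12.6 FPKM in CTL_6h. The groups were far apart, although CTL_6h_3 held less than the other 6 h control libraries, and the change was 2.86 ± 0.28 (adjusted p = 2.27e-05, limma).

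Dusp8, Dusp10 and Dusp16 encode phosphatases that prefer JNK and p38 over ERK. Dusp8 stood at 0.0990, 0.164 and 0.127 FPKM in CTL_0h, an estimated 2 to 4 fragments per library, and at 9.22, 8.42 and 9.41 FPKM in CTL_6h. Its 3 control libraries at 6 h agreed within a coefficient of variation of 5.83%, the tightest of the members, and the change was 3.15 ± 0.23 (adjusted p = 2.17e-06, limma). Dusp10, or MKP-5, went from 0.900, 0.819 and 0.577 FPKM in CTL_0h to 4.68, 3.68 and 5.74 FPKM in CTL_6h. The change was 1.68 ± 0.15 (adjusted p = 1.01e-05, limma). Dusp16, or MKP-7, was already expressed at 0 h, at 5.67, 4.02 and 5.50 FPKM, and reached 17.7, 10.6 and 16.9 FPKM at 6 h. The change was 1.39 ± 0.21 (adjusted p = 0.000494, limma), without overlap.

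The upstream inhibitors were low throughout. Spred1, which brings the Ras inactivator neurofibromin to the membrane, measured 0.938, 0.806 and 0.627 FPKM in CTL_0h and 2.62, 2.22 and 2.57 FPKM in CTL_6h. It rose by 0.96 ± 0.14 (adjusted p = 0.000425, limma). Spry4, an inhibitor of receptor tyrosine kinase signalling on mouse chromosome 18, measured 0.312, 0.732 and 0.669 FPKM in CTL_0h and 2.20, 1.16 and 2.54 FPKM in CTL_6h. It rose by 0.90 ± 0.18 (adjusted p = 0.00406, limma). Spry2, its paralog with a like role, reached 1 FPKM in 2 libraries only and was not tested. It measured 0.713, 0.393 and 0.914 FPKM in CTL_0h and 1.32, 0.638 and 1.63 FPKM in CTL_6h, so the groups overlapped. With no filter on low values its change was 0.38 ± 0.21 (adjusted p = 0.274, limma over 17161 genes).

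The genes lie on 10 different chromosomes of the mm10 build, so no pair of them are neighbours. In the GENCODE vM21 annotation Dusp5 occupies chr19:53529109-53542431 on the plus strand, Dusp8 chr7:142079490-142095843 on the minus strand and Dusp4 chr8:34807297-34819894 on the plus strand. Dusp6 lies at chr10:99263231-99267489 and Dusp10 at chr1:184013302-184075636, both on the plus strand, and Dusp16 at chr6:134715468-134792625 on the minus strand. Exons of an annotated antisense RNA, AC137853.2, share 547 bases with Dusp5 exons, and those of the non-coding Gm32786 share 66 bases with Dusp8 exons on the opposite strand. Neither has a row in the table, and whether reads were counted by strand is not given in the sources used here, so reads of these pairs cannot be told apart.

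Promoter windows, from 250 bases before to 50 bases after the annotated start, were taken from RefSeq (GRCm38.p6), where 8 of the 10 genes had one. Shown here are those of Dusp1, Dusp5 and Dusp8, picked because they hold motifs that are rare among promoters. The windows of Dusp6, Dusp10, Dusp16 and Spred1, which rose as well, held none of the motifs marked below. Capitals mark the full cyclic AMP response element (CRE, TGACGTCA) in Dusp1 and Dusp8, a site for CREB and ATF factors, and the CArG boxes, sites for serum response factor, in Dusp5. Each is written 5′ to 3′ on the gene's own strand, at chr17:26508423-26508722 (minus), chr19:53528895-53529194 (plus) and chr7:142095235-142095534 (minus).
Dusp1: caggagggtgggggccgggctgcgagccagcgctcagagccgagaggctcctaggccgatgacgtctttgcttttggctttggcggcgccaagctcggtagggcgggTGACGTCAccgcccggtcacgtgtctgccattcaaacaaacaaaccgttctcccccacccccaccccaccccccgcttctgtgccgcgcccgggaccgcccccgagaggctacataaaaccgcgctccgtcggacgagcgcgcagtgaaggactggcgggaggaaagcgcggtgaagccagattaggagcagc
Dusp5: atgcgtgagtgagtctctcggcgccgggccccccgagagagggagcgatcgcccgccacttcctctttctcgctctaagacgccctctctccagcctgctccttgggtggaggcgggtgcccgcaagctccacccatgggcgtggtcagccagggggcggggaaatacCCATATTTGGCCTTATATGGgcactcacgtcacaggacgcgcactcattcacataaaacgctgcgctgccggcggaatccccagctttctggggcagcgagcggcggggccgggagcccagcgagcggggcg
Dusp8: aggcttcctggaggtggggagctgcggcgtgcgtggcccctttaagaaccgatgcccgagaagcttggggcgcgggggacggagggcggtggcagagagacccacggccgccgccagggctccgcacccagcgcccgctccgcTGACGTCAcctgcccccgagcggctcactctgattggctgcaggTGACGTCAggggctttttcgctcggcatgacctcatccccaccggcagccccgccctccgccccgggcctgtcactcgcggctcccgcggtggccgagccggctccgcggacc

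The Dusp1 window held 1 CRE, at positions -143 to -136 from the start, and the Dusp8 window held 2, at -107 to -100 and at -63 to -56. The full CRE was found in 1.79% of 32851 promoter windows of this length, on both strands. In the Dusp5 window 2 CArG boxes stood side by side, at -82 to -73 and at -72 to -63, and 1.63% of windows held at least 1. The CRE core TGACG, which every full CRE contains on both strands, occurred in 4 of the 8 windows and in 20.8% of all windows. The NRF2 element TGACNNNGC occurred in Dusp1 and Dusp5 and in 12.4% of all windows. The heat shock element GAANNTTC occurred in Dusp16 and in 7.86% of windows, and the E-box CACGTG in Dusp1 and in 7.15%. In the 8 windows the AP-1 site TGANTCA (7.81% of all windows), the ETS site CCGGAAGT (3.89%) and the TATA box TATAAA (13.6%) were not present, and the ETS core CCGGAA (14.9%) occurred in Spry2. A match is a description of the letters and not of binding. The windows were rich in G and C, at 57.3% to 73.3% against a median of 52.7% over all windows.

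**Figure D2:**
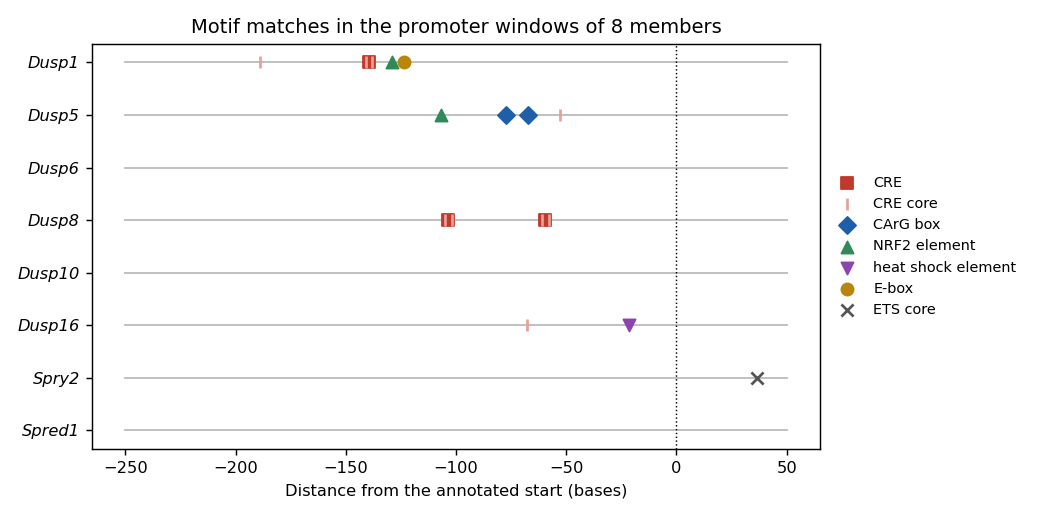
Motif matches in the promoter windows of the 8 members that have one, by distance in bases from the annotated start (dotted line), each symbol at the centre of a match. The CRE matches lie in Dusp1 and Dusp8, and the neighbouring CArG boxes in Dusp5, and for Dusp6, Dusp10 and Spred1 the searched motifs gave no match.

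After 4 weeks of PPA, 8 of the 9 tested members rose by 6 h after APAP and none fell, with Spry4 the exception. Of all tested genes 14.9% rose and 13.1% fell here. Again 5 of the 8 that rose, Dusp4, Dusp5, Dusp8, Dusp10 and Spred1, had passed the filter only with 6 h libraries, and with no filter 7 of the 10 genes rose, against 8.22% of all genes. Between 7 and 8 members rose when each of the 6 libraries was left out in turn.

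Dusp5 was listed at 0, 0.252 and 0.207 FPKM in PPA_0h and reached 14.2, 15.1 and 12.2 FPKM in PPA_6h, a change of 3.68 ± 0.27 (adjusted p = 1.70e-06, limma). Dusp8 went from 0.0970, 0.0549 and 0.180 FPKM to 2.66, 3.47 and 7.43 FPKM, a change of 2.22 ± 0.23 (adjusted p = 4.47e-05, limma). Dusp4 went from 0.297, 0.561 and 0.828 FPKM to 6.59, 4.51 and 6.66 FPKM, a change of 2.15 ± 0.28 (adjusted p = 0.000199, limma). In none of these 3 genes did the 0 h and 6 h libraries overlap, and the coefficient of variation of Dusp5 was 10.6% in PPA_6h and 49.8% in CTL_6h.

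Dusp10 measured 0.440, 0.499 and 0.573 FPKM in PPA_0h and 3.78, 4.64 and 4.06 FPKM in PPA_6h (1.78 ± 0.15, adjusted p = 6.81e-06, limma). Dusp16 measured 4.64, 4.08 and 5.05 FPKM and then 12.4, 11.8 and 18.3 FPKM (1.42 ± 0.21, adjusted p = 0.00044, limma). For both, every 6 h library lay above the 0 h range. Dusp6 measured 12.1, 11.1 and 5.94 FPKM and then 28.6, 21.6 and 46.6 FPKM (1.62 ± 0.30, adjusted p = 0.00211, limma), also without overlap. Spred1 measured 0.882, 1.08 and 1.09 FPKM and then 1.84, 1.83 and 2.65 FPKM (0.61 ± 0.14, adjusted p = 0.00659, limma).

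Dusp1 measured 92.3, 60.9 and 88.0 FPKM in PPA_0h and 189, 90.0 and 345 FPKM in PPA_6h. The groups overlapped, since PPA_6h_2 lay below PPA_0h_2, and the coefficient of variation in PPA_6h was 61.8%, against 13.2% in CTL_6h. The rise of 1.18 ± 0.36 (adjusted p = 0.0271, limma) was no longer called in 7 of 19 alternatives, among them leaving out PPA_0h_4 (0.995 ± 0.398, adjusted p = 0.1), PPA_0h_5 (1.26 ± 0.41, adjusted p = 0.0533), PPA_6h_1 (1.15 ± 0.41, adjusted p = 0.0741) or PPA_6h_5 (0.72 ± 0.27, adjusted p = 0.0855), within a range of 0.000769 to 0.1 over all of them. Spry4 measured 1.27, 1.21 and 1.51 FPKM in PPA_0h and 1.01, 1.23 and 1.02 FPKM in PPA_6h. Its groups overlapped, the change was -0.16 ± 0.18 with a 95% interval of -0.56 to 0.24 (adjusted p = 0.55, limma), and its direction was the same in all 18 alternatives. Spry2, not tested, measured 0.349, 0.132 and 0.648 FPKM and then 0.807, 0.331 and 0.567 FPKM, with overlap.

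**Figure D3:**
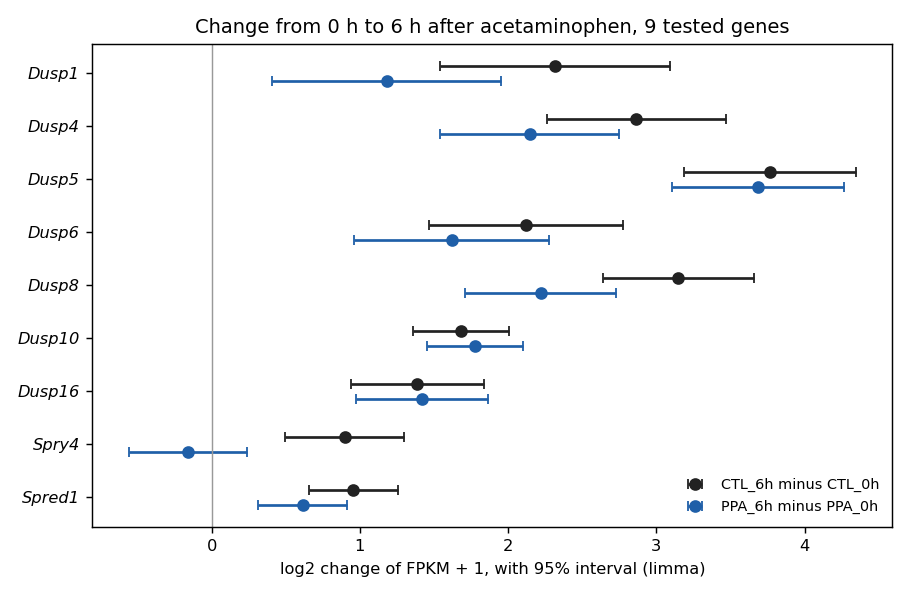
Change from 0 h to 6 h in log2(FPKM + 1) for the 9 tested genes in control (black) and PPA mice (blue), with 95% intervals from limma; the vertical line marks no change. In control mice every interval lies above 0, and in PPA mice every interval but that of Spry4 does.

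Whether PPA alone moved these genes was asked by PPA_0h against CTL_0h. By limma 0 of the 9 members were called, in a comparison where 0.0198% of tested genes were called higher and 0% lower. An unadjusted p under 0.05 was found for 1 member, Spry4, and for 6.80% of tested genes. Spry4 measured 1.27, 1.21 and 1.51 FPKM against 0.312, 0.732 and 0.669 FPKM in control mice, 2.34 times as much and without overlap, at an estimated 22 to 33 fragments per library against 6 to 17 (0.58 ± 0.18, adjusted p = 0.579, limma). Dusp10 had the opposite pattern, with all PPA_0h libraries below all CTL_0h libraries (-0.23 ± 0.15, adjusted p = 0.769, limma). Groups without overlap are frequent at 3 against 3: 6.56% of tested genes had all PPA_0h libraries higher and 7.92% had all of them lower, against 1 and 1 of the 9 members. Dusp1 was at 60.9 to 92.3 FPKM against 47.7 to 62.7 FPKM in control mice, with overlap and a 95% interval of -0.22 to 1.32. For Dusp8 and Dusp5, both near 0, the differences of -0.03 ± 0.23 and 0.08 ± 0.27 rest on 0 to 4 fragments per library.

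At 6 h, PPA_6h was set against CTL_6h. By limma 0 of the 9 members were called in this comparison, where 0.0694% of tested genes were higher and 0.0694% lower. An unadjusted p under 0.05 was found for 3 members, Dusp8, Spry4 and Dusp6, and for 14.8% of tested genes. All 9 estimates were below 0, with a median of -0.48, while 54% of all tested genes had an estimate below 0 and their median was -0.02. The estimates of Dusp5 and Dusp16 changed sign under other scalings of the libraries, those of both with upper-quartile scaling and that of Dusp5 also with median-ratio scaling and with quantile normalization.

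Dusp8 had the smallest p at 6 h. The 3 PPA libraries, at 2.66, 3.47 and 7.43 FPKM, were all below the 3 control libraries, at 9.22, 8.42 and 9.41 FPKM, and their mean was 0.501 times the control mean. The difference was -0.95 ± 0.23 with a 95% interval of -1.46 to -0.44 (adjusted p = 0.145, limma). Dusp8 was 1 of 9 members with all PPA libraries lower, which held for 8.58% of tested genes, and 0 of 9 members had all PPA libraries higher, against 6.57%. PPA_6h_5 stood nearest to the control level, and without it the difference was -1.31 ± 0.14 (adjusted p = 0.00163, within 0.00163 to 0.5 over 19 alternatives). Dusp6 was at 28.6, 21.6 and 46.6 FPKM against 64.3, 37.3 and 57.5 FPKM, with overlap (-0.73 ± 0.30, adjusted p = 0.293, limma). Spry4 was at 1.01, 1.23 and 1.02 FPKM against 2.20, 1.16 and 2.54 FPKM, with overlap through CTL_6h_3 (-0.48 ± 0.18, adjusted p = 0.27, limma). Dusp5 and Dusp16 had the smallest differences, -0.01 ± 0.27 and -0.08 ± 0.21, with 95% intervals of -0.59 to 0.57 and -0.53 to 0.37, which leave room for changes in both directions.

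Single 6 h libraries stood low or high for several members at once. CTL_6h_3 had the lowest value of the 3 CTL_6h libraries for 9 of 9 tested members, whereas it was lowest for 40.3% of all tested genes. Its deviation from the group mean in log2(FPKM + 1) was -0.79 for Dusp4 and -0.68 for Dusp5. Within PPA_6h, PPA_6h_5 was highest for 6 of 9 members, against 40.5% of tested genes, and PPA_6h_2 was lowest for 5 of 9, against 36.8%, and highest for 3. At 0 h no library was lowest for more than 5 members or highest for more than 6. Among the 6 h libraries Dusp1 spread most, with -0.996 from the group mean in PPA_6h_2 and 0.931 in PPA_6h_5. In CTL_6h_2, CTL_6h_3 and CTL_6h_4 the neutrophil marker list summed to 44.9, 11.3 and 54.0 FPKM. The cholangiocyte list summed to 43.4, 20.5 and 55.0 FPKM there, and the hepatocyte list to 37122, 31747 and 39984 FPKM. CTL_6h_3 had the lowest of the 3 sums in these and in every other marker list, so this was not particular to 1 cell type. The part of the cell types in the result was not tested.

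**Figure D4:**
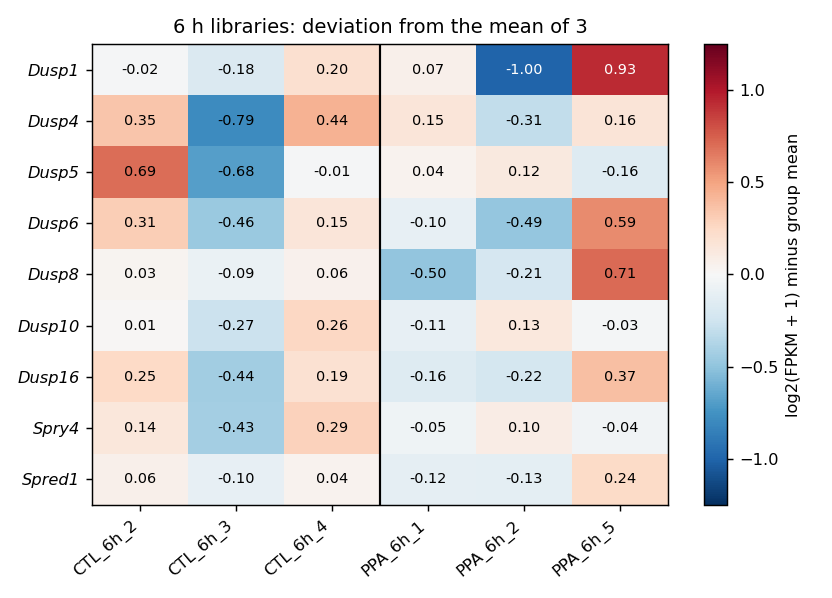
Deviation of log2(FPKM + 1) from the mean of the 3 libraries of a group, for the 9 tested genes (rows) in the 6 h libraries (columns; controls left of the line, PPA right), red above and blue below the mean. The CTL_6h_3 column is below 0 in all 9 rows, and Dusp1 in PPA_6h_2 and PPA_6h_5 has the most extreme values, -0.996 and 0.931.

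The calls for PPA at 6 h changed when CTL_6h_3 or PPA_6h_5 was left out. Without CTL_6h_3, where 4.67% of tested genes were called lower, 3 members were lower in PPA_6h than in the remaining 2 controls: Dusp4 (-0.95 ± 0.19, adjusted p = 0.0182, within 0.0179 to 0.792 over its 19 alternatives), Dusp8 (-0.997 ± 0.271, adjusted p = 0.0475) and Spry4 (-0.69 ± 0.16, adjusted p = 0.027, within 0.0101 to 0.676 over its 18 alternatives). Leaving out PPA_6h_5 gave 1 such member, Dusp8, and 2.44% of tested genes. With each of the other 4 libraries left out 0 members were called.

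**Figure D5:**
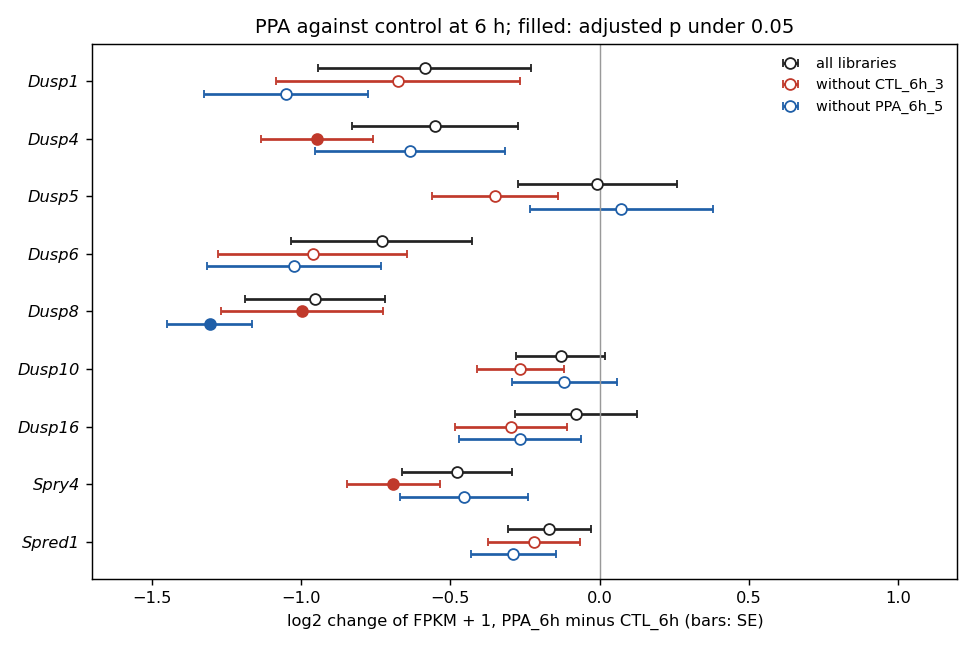
Difference between PPA_6h and CTL_6h in log2(FPKM + 1) with its SE for the 9 tested genes, with all libraries (black), without CTL_6h_3 (red) and without PPA_6h_5 (blue); filled points have an adjusted p under 0.05. With all libraries no point is filled, without CTL_6h_3 Dusp4, Dusp8 and Spry4 are, and without PPA_6h_5 Dusp8 is.

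Whether the APAP response itself differed between PPA and control mice was tested as the interaction. Again 0 of 9 members were called by limma, in a comparison where 0.00991% of tested genes were called higher and 0.00991% lower. An unadjusted p under 0.05 was found for 3 members and for 9.10% of tested genes. Spry4 had the smallest p: its response was 0.90 in control and -0.16 in PPA mice, a difference of -1.06 ± 0.26 (adjusted p = 0.326, limma). Both times enter this difference: PPA_0h minus CTL_0h was 0.58 ± 0.18, and PPA_6h minus CTL_6h was -0.48 ± 0.18. The CTL_0h level of Spry4 rests on an estimated 6 to 17 fragments per library. For Dusp8 the responses were 3.15 and 2.22, a difference of -0.93 ± 0.33 (adjusted p = 0.479, limma). For Dusp1 they were 2.32 and 1.18, a difference of -1.14 ± 0.50 (adjusted p = 0.541, limma), which became -0.64 without PPA_6h_2 and -1.60 without PPA_6h_5. The responses of Dusp10, at 1.68 and 1.78, and of Dusp16, at 1.39 and 1.42, differed by 0.10 ± 0.21 and 0.03 ± 0.29, with 95% intervals of -0.36 to 0.56 and -0.60 to 0.66. This test uses the same libraries as the PPA comparisons, so the values are not independent of those. Without CTL_6h_3 the Spry4 difference was called (-1.27 ± 0.21, adjusted p = 0.0376, within 0.0376 to 0.76 over 23 alternatives), and without PPA_6h_5 that of Dusp8 was (-1.28 ± 0.19, adjusted p = 0.0358, within 0.0358 to 0.838 over 24 alternatives). Of all tested genes 0.288% were called lower in the first of these fits and 0.0793% in the second.

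For context, the other genes of these families were counted in the same way, from lists chosen with earlier results known. Some listed genes, among them Dusp14, passed the filter only with 6 h libraries and so had to be high there. The counts of genes that rose in these and the following lists are therefore descriptions. Of all tested genes 15.0% rose and 11.6% fell in control mice, and 14.9% rose and 13.1% fell in PPA mice. Of 19 further phosphatase genes of the DUSP and related families 11 were tested, and in control mice 1 rose and 4 fell after APAP, with a median of -0.24. The riser was Dusp14, an atypical phosphatase, from 0.0489 ± 0.0848 to 4.62 ± 3.54 FPKM (SD, n = 3; 2.11 ± 0.48, adjusted p = 0.0072, limma). Those that fell were the atypical phosphatase genes Dusp22 (-0.55 ± 0.16), Dusp19 (-0.77 ± 0.23) and Dusp23 (-0.68 ± 0.21) and, outside the naming rule, Dusp12 (-0.57). In PPA mice 1 of the 11 rose and 2 fell. Of 18 further Sprouty, Spred and receptor feedback genes 13 were tested, and 4 rose and 0 fell in control mice: Errfi1, the EGF receptor inhibitor MIG-6 (0.81 ± 0.13, from 270 ± 14.7 to 472 ± 22.8 FPKM), Lrig1 (0.83 ± 0.14), the ubiquitin ligase gene Peli1 (0.49 ± 0.12) and Spry1 (0.66 ± 0.17). In PPA mice 2 of these 13 rose. None of either list was called in the PPA comparisons or the interaction, where 1, 1 and 0 of the first list and 2, 4 and 3 of the second had an unadjusted p under 0.05 at 0 h, at 6 h and in the interaction.

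The kinase cascades that the phosphatases act on were counted next. Of all tested genes 15.0% rose and 11.6% fell in control mice, and 14.9% rose and 13.1% fell in PPA mice. Of the 24 ERK cascade genes 22 were tested, and 5 rose and 1 fell in control mice (median 0.15), while 5 rose and 3 fell in PPA mice. Mknk2, a kinase activated by ERK and p38, went from 42.5 ± 5.82 to 152.9 ± 12.6 FPKM (1.83 ± 0.19, adjusted p = 3.18e-05, limma), and Ptpn11, the phosphatase SHP2 (0.66 ± 0.15), and the Ras exchange factor gene Sos2 (0.64 ± 0.16) rose as well. Of 31 JNK and p38 cascade genes 28 were tested, and 12 rose and 2 fell in control mice (median 0.33), against 8 and 2 in PPA mice. Trib1, a pseudokinase gene that was listed with this cascade, rose from 9.75 ± 0.818 to 108 ± 13.4 FPKM (3.34 ± 0.13, adjusted p = 6.02e-09, limma). The p38 kinase kinase gene Map2k3 (1.26 ± 0.14), Map3k6 (2.01 ± 0.26) and the p38 target kinase gene Mapkapk2 (0.86 ± 0.15) rose too and had the next smallest p. Sos2 and Map3k6 passed the filter only with 6 h libraries and so had to be high there, and the counts of both cascades are descriptions. Chosen after their values were seen, Map3k5, the kinase ASK1 that activates JNK under oxidative stress, rose (1.30 ± 0.23, adjusted p = 0.00171), and Sh3bp5, the mitochondrial docking protein of JNK, fell from 18.3 ± 1.98 to 10.4 ± 0.284 FPKM (-0.76 ± 0.19, adjusted p = 0.0106, limma). The JNK genes themselves, Mapk8 (0.36 ± 0.16, adjusted p = 0.123) and Mapk9 (-0.13 ± 0.11, adjusted p = 0.406), were not called.

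Transcripts that lie downstream of the kinases rose with the phosphatases. Of 20 transcripts known as ERK-induced 16 were tested, and 14 rose and 0 fell in control mice (median 2.90), against 13 and 0 in PPA mice (median 2.04). Fosl1, Fosb, Egr2 and Plaur, at means of 0 to 0.299 FPKM in the 0 h groups, passed the filter only with 6 h libraries. They had to be high there, and the count is a description. Of all tested genes 15.0% rose in control and 14.9% in PPA mice. Phlda1 (3.46 ± 0.15), Egr1 (5.77 ± 0.29), Myc (3.79 ± 0.23) and Ier5 (2.91 ± 0.18) had the smallest p. Of 14 JNK substrates and stress-induced AP-1 partners 13 were tested, and 10 rose and 1 fell in control mice (median 1.23), against 8 and 0 in PPA mice (median 0.78). The smallest p here were those of Atf3 (8.24 ± 0.18), Jun (5.36 ± 0.23), Gadd45a (5.87 ± 0.25) and Jund (2.02 ± 0.14). Atf3 and Elk1 passed the filter only with 6 h libraries and so had to be high there, and the count of 10 is likewise a description. In PPA at 0 h, PPA at 6 h and the interaction 0 genes of these 4 lists were called by limma, with 0, 4 and 1 of the ERK cascade, 2, 1 and 0 of the JNK and p38 cascade, 2, 7 and 5 of the ERK-induced transcripts and 0, 5 and 2 of the JNK substrates at an unadjusted p under 0.05.

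Likeness to other genes was measured as the root mean square difference of log2(FPKM + 1) over the 12 libraries after centring each gene on its mean, given as a description. Dusp1 lay nearest to Mdm2 (0.30), Zfp36 (0.30) and Actb (0.33), and Dusp6 nearest to Myh9 (0.26), Gcnt2 (0.30) and Tgif1 (0.30). Dusp4 lay nearest to Ets2 (0.24), H3f3b (0.26) and Pvr (0.27), and Dusp8 to H3f3b (0.25), Rnd3 (0.25) and Ets2 (0.30), so H3f3b and Ets2 were on both lists. Dusp5 was less closely matched, with Csrnp1 (0.35), Klf6 (0.36) and Srxn1 (0.38) nearest. Dusp10 lay nearest to the phosphatase gene Ptp4a1 (0.13), then to Cxadr (0.21) and Hsp90ab1 (0.22), and Dusp16 to Mcl1 (0.19), Mak16 (0.19) and Atf4 (0.21). Spry4 lay nearest to Trafd1 (0.17), Atg2a (0.21) and Cry2 (0.21), and Spred1 to Ubap1 (0.11), Cd38 (0.12) and Nfx1 (0.12). Within the family the closest pair was Dusp10 and Dusp16, at 0.28, but 20 other tested genes lay nearer to Dusp10 and 51 nearer to Dusp16.

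Markers of other cell types were summed per library to see what moved beside these results. All 3 tested neutrophil markers of 7 listed rose in both control and PPA mice. The 6 listed neutrophil markers with a row, tested or not, summed to 0.654 to 2.95 FPKM in CTL_0h and 11.3 to 54.0 FPKM in CTL_6h. In PPA mice they summed to 0.42 to 2.88 FPKM in PPA_0h and 17.0 to 24.4 FPKM in PPA_6h. With such low 0 h sums, the tested markers may have passed the filter through the 6 h libraries. Kupffer cell markers had 1 of 8 higher and 0 lower in both, with sums of 69.5 to 135 FPKM in CTL_0h and 94.9 to 163 FPKM in CTL_6h. Sinusoidal endothelial markers had 1 of 8 higher and 3 lower in control mice, with sums of 52.3 to 79.4 FPKM in CTL_0h and 57.8 to 71.7 FPKM in CTL_6h. Stellate cell markers had 1 of 8 and cholangiocyte markers 1 of 5 higher. Hepatocyte markers had 2 of 8 lower in control and 3 of 8 lower in PPA mice. Among these 8, Alb was at 17325.9 FPKM or more in every 0 h library and listed at 0 in every 6 h library. Whether that 0 is a failed estimate was not tested, so these counts are no measure of hepatocyte loss. Of 6 lymphocyte markers with a row none passed the filter, and of 3 tested erythroid markers none was called by limma in either APAP comparison. Skeletal muscle markers summed to 135 FPKM in CTL_6h_4 and to 1.78 FPKM or less in every other library, and without CTL_6h_4 all 9 members still rose in control mice. The part of the other cell types in the results was not tested.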

How the data were processed

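The labels' protocols give Trizol extraction of liver RNA, bead isolation of poly(A) RNA and a ThruPLEX kit for the libraries. The deposited FPKM were computed by the authors and scaled to library totals, so a few abundant genes shift the values of all others. Per the submitters' processing notes the tools were HISAT2 2.1.0, Cufflinks, SAMtools 0.1.18-r580 and Cuffdiff 2.1.1, and the build was mm10. Settings and annotation were not given in the sources used here. Depth was estimated from the steps of low FPKM values in 872 genes with 1 annotated transcript of at least 3000 bases. Per library, 62.6% to 73.5% of those low values came within 0.1 of a whole fragment, so fragment numbers per gene are approximate.

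Groups came from the sample titles. A gene was tested if 3 or more of the 12 libraries had an FPKM of 1 or above. The test was limma 3.58.1 (R 4.3.3) on log2(FPKM + 1), fitting all libraries together with a mean for each group and a trended prior, with Benjamini-Hochberg adjustment over 10086 genes and 95% intervals. It was tested on simulated data with known changes. The 27 rows whose symbol had become a number are not named. Alternatives covered the pseudocount, filter, scaling, array weights, robust moderation, the groups fitted, a replicate block and single libraries left out. One more, without short RNA genes, Alb and Apoe, was chosen after seeing the data. The members, lists and alternatives were chosen with earlier results of these data known. From the 7 context lists, up to 4 called genes with the smallest p in control mice are named, and for likeness the 3 nearest genes. One gene that this rule names is not reported here. Promoters are from RefSeq, GRCm38.p6, and loci from GENCODE vM21. Tables and figures used Python 3.11.15, pandas 2.3.3, SciPy 1.17.1 and matplotlib 3.10.9.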

Additional observations from a re-analysis of the deposited data

How the results depend on the processing

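Of 885 recomputed member changes, 842 kept their direction and their side of the threshold, 7 were weaker, 11 stronger and 25 changed sign. The members that rose in control mice did so in every alternative that tested them, of which the filter of 5 FPKM tested 6. The Dusp1 rise in PPA mice was also lost with no filter (adjusted p = 0.0635, limma) and with only the groups compared (adjusted p = 0.071). Members lower in PPA mice at 6 h numbered 4 with array quality weights (Dusp4, Dusp6, Dusp8 and Spry4), where 11.8% of all tested genes were lower, and 0 to 3 without each library in turn. In the interaction they numbered 1 with weights (Spry4), where 0.248% of all were lower, and 0 to 1 without each library. All changes of sign were in differences that were not called, and the cause was not tested. For PPA at 6 h, Dusp5 was 0.0753 and Dusp16 0.00343 with upper-quartile scaling, and Dusp5 was 0.00637 with median-ratio scaling and 0.0526 with quantile normalization. In the interaction, Dusp10 was -0.0114 with a pseudocount of 5 and -0.0105 with array weights, and Dusp16 was -0.246 with array weights. Without each library in turn, PPA at 0 h ranged from -0.401 to 0.0573 for Dusp6 and from -0.0706 to 0.0103 for Dusp8. PPA at 6 h ranged from -0.349 to 0.340 for Dusp5 and from -0.297 to 0.0460 for Dusp16. The interaction ranged from -0.425 to 0.264 for Dusp5, from -0.0377 to 0.226 for Dusp10 and from -0.188 to 0.160 for Dusp16.

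Over all genes, 14 were called for PPA at 6 h, against 2064 with array weights, 22 with a pseudocount of 5, 3 and 5 with pseudocounts of 0.1 and 0.5, 9 and 8 with upper-quartile and median-ratio scaling, 7 with no filter and 1 with only the groups compared. Without CTL_6h_3 there were 792, without PPA_6h_5 there were 365, and without each of the other 4 libraries 4 or 5. For PPA at 0 h the 2 genes called became 9 with only the groups compared, 4 with the filter of 5 FPKM, and 1 to 3 in the others. In the interaction the 2 became 39 with array weights, 4 with the filter of 5 FPKM, 41 without CTL_6h_3, 11 without PPA_6h_5, and 1 to 3 in the others. Among genes called in control mice, 1513 were higher and 1173 lower, against 1272 and 1532 with upper-quartile scaling and 1303 and 1592 with quantile normalization.

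Replicate numbers are shared between groups. Same-numbered libraries deviated from their group means with correlations of -0.208 to 0.0907 over 9 pairs, against -0.212 to 0.255 over 45 other pairs. With so few pairs this cannot show whether same-numbered libraries share more than the number. With a replicate block the Dusp1 rise in PPA mice had adjusted p = 0.0575 (limma), PPA at 0 h was -0.0916 for Dusp4 and -0.234 for Dusp5, and the Dusp5 interaction was 0.0927. The block left 2064 genes called after APAP in control mice, 1947 in PPA mice, 2 for PPA at 0 h, 2 at 6 h and 1 in the interaction.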

Other observations

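Growth factor ligands and receptors, which feed the pathways that these genes restrain, were counted as a further list of 30 genes, of which 22 were tested. In control mice 6 rose and 4 fell after APAP, with a median of 0.30, and in PPA mice 4 rose and 3 fell, with a median of 0.20. Of all tested genes 15.0% rose and 11.6% fell in control mice, and 14.9% rose and 13.1% fell in PPA mice. The ligand genes Btc, for betacellulin, and Hbegf, for heparin-binding EGF-like growth factor, rose in control mice by 1.10 ± 0.17 (adjusted p = 0.000632, limma) and 2.16 ± 0.35 (adjusted p = 0.000954, limma). Hbegf went from 0.196 ± 0.176 FPKM in CTL_0h to 5.01 ± 3.09 FPKM in CTL_6h and from 0.144 ± 0.125 FPKM in PPA_0h to 1.30 ± 0.355 FPKM in PPA_6h (SD, n = 3), where the change was not called (adjusted p = 0.0516, limma). Areg, for amphiregulin, had a listed value of 0 in each 0 h library and averaged 4.12 ± 2.72 FPKM in CTL_6h and 2.86 ± 1.11 FPKM in PPA_6h. Btc, Hbegf and Areg passed the filter only with 6 h libraries and so had to be high there, and the count of genes that rose is a description. Vegfa, the endothelial growth factor gene, rose by 1.38 ± 0.28 in control and by 1.66 ± 0.28 in PPA mice. No gene of the list was called by limma in PPA at 0 h, PPA at 6 h or the interaction, where 2, 5 and 1 had an unadjusted p under 0.05.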
